A study of Mus musculus with 4 samples.

Results

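The PHD finger of TAF3, expressed alone, was compared in its wild-type form (PHD WT) and with the M880A substitution (PHD M880A) through the genomic positions at which an HIV-based vector integrated. Members were all distinct integration positions (chromosome, strand and junction) in the lists of these libraries. There were 25363 for PHD WT and 34888 for PHD M880A, or 60251 of the 122029 positions of the whole series. Both groups were MEF cells, mouse embryonic fibroblasts of strain C57BL/6 with the genotype Psip1 (-/-), so that both lack LEDGF/p75. Both received by nucleofection a plasmid for a fusion of the PHD domain with the integrase-binding domain of LEDGF, the IBD. They recovered for 24 to 36 h and were sorted for GFP. Cells of each group were then infected with 500 ng of VSV-G pseudotyped luciferase vector in 8 μg/mL polybrene and harvested after 48 to 72 h. Only the residue at position 880 differed by label. The fusion was delivered as a plasmid to a sorted population, the promoter that drives it is not given in the sources used here, and the lists hold no expression values against which to check the cell type or the level of either fusion. Each form was represented by 1 library, so differences below are between these libraries and have no replicate check.

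A PHD finger is a small zinc-binding fold. TAF3 belongs to TFIID, a general transcription factor, and its PHD finger binds the tail of histone H3 when lysine 4 carries 3 methyl groups, a mark found around the start sites of active genes. HIV integrase is normally guided to chromatin by LEDGF/p75, which holds integrase through its IBD and reads chromatin with another domain. In cells without LEDGF/p75, a fusion that carries the IBD can take over the guiding, so that integration positions can report where the fused domain sat. Every library of the series is labelled with a form of TAF3, so sites placed without guidance by a fusion cannot be told apart here. The question behind the comparison is how far the integration positions obtained with the PHD finger depend on residue 880.

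Both lists were read from lanes of 1 flow cell, lane 2 for PHD WT and lane 3 for PHD M880A. They held 2228958 and 2085037 reads, taken from the number attached to each listed position. Plus-strand sites made up 50.2% (Wilson 95% interval 49.6 to 50.8) of PHD WT and 50.0% (49.4 to 50.5) of PHD M880A, and sites lay on 20 chromosomes in both. Identical in the lists were 40 positions, 0.158% of PHD WT and 0.115% of PHD M880A. The number that random placement would give was not computed. Because the PHD M880A list was longer, values marked as of equal length give the exact expectation for 25363 of its sites. Intervals cover counting error only. They are 95% intervals, except for ratios of medians, where opposite ends of separate 95% intervals were divided. Sites in the same cluster are not independent, and intervals over them are too narrow.

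Sites of the wild-type PHD finger lay close together and those of the mutant far apart. The median distance to the nearest other site of the library was 287 bp in PHD WT. In PHD M880A it was 25954 bp at equal length, 90.4 times as far (counting interval 85.1 to 95.5), and 18392.5 bp over all its sites. Placing as many sites evenly at random over the 2568 Mb between the outermost sites has an expected median of 35092 bp, so the mutant lay nearer to that value than to the wild type. The contrast narrowed with distance. At the 25th percentile the distances were 74 bp and 8.39 kb, at the 75th 8.01 kb and 61.8 kb, and at the 90th 100.5 kb and 117.1 kb. PHD WT thus held a crowded majority and an isolated minority: 24.4% of its sites had no other within 10 kb, against 72.1% in the mutant at equal length, and 10.0% against 13.1% had none within 100 kb.

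**Figure D1:**
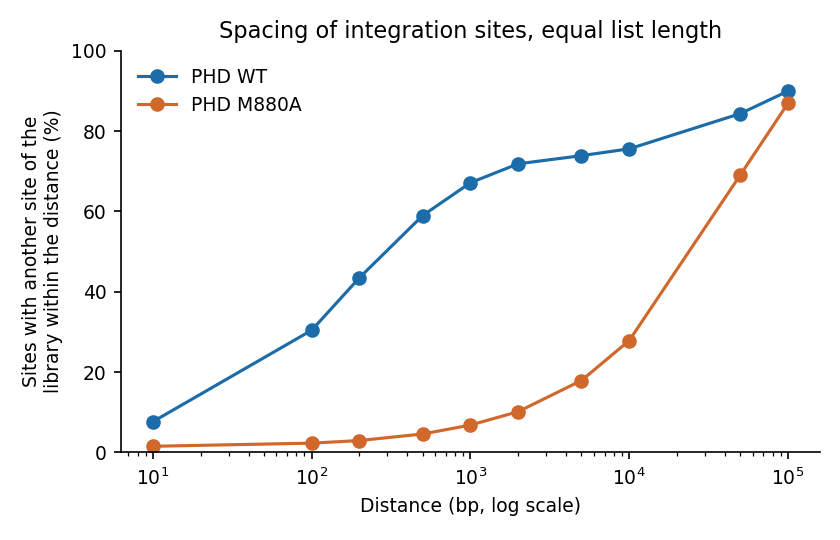
The percent of sites (vertical axis) with another site of the same library within the distance on the horizontal axis (bp, log scale), at equal list length, for PHD WT and PHD M880A. The PHD WT curve reached 67.2% at 1 kb and then flattened to 75.6% at 10 kb, while the PHD M880A curve rose from 6.81% to 27.9% over the same distances.

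A neighbour within 1 kb was present for 17032 PHD WT sites, 67.2% (66.6 to 67.7). For PHD M880A the share was 6.81% at equal length, and 8.89% (8.59 to 9.19) over all sites. The ratio at equal length was 9.86 (9.53 to 10.2), and it was 4.13 when neighbours within 5 kb were counted and 16.4 among sites with at least 10 reads. The difference had the same direction on each of the 20 chromosomes. PHD WT shares ran from 56.4% on X and 59.1% on chromosome 12 to 75.1% on chromosome 17. PHD M880A shares at equal length ran from 3.05% on chromosome 14 to 9.73% on chromosome 19, so the highest mutant chromosome stayed far below the lowest wild-type chromosome. Chained where neighbours were no more than 1 kb apart, the PHD WT sites formed 12360 runs, in which 37.7% of sites belonged to runs of 5 or more. The PHD M880A sites formed 33182 runs, of which 31787 were single sites.

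The local shape of the wild-type clusters was a plateau followed by a steep fall. The density of neighbours, counted per site and per kb on one side, was 1.89 between 10 and 20 bp, 1.92 between 50 and 100 bp and 1.86 (1.81 to 1.92) between 100 and 200 bp. It was 1.43 between 400 and 500 bp, 0.871 between 750 and 1000 bp, 0.373 between 1.5 and 2 kb and 0.0582 between 3 and 5 kb. The steep part ended there, and the density was 0.0306 between 5 and 10 kb, 0.0277 between 10 and 20 kb and 0.0315 between 20 and 50 kb. The mutant had a low and shallow profile: at equal length 0.0390 (0.0336 to 0.0450) between 100 and 200 bp, 0.0293 between 1 and 1.5 kb and 0.0150 between 10 and 20 kb. The density within 1 kb was 45.5 times that at 5 to 10 kb in PHD WT and 2.84 times in PHD M880A. The ratio of these folds was 16.0 (15.0 to 17.0). Even between 10 and 20 kb, PHD WT density stood above that of the mutant at equal length, 0.0277 (0.0271 to 0.0284) against 0.0150 (0.0146 to 0.0153).

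**Figure D2:**
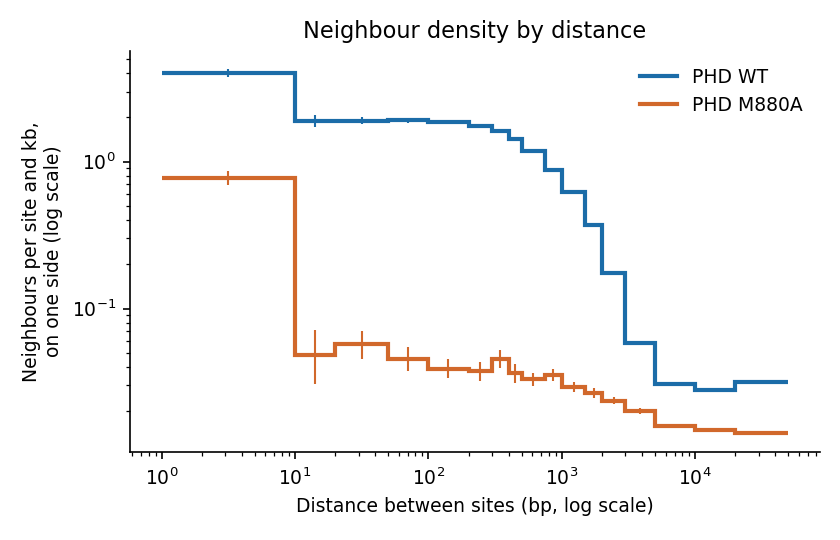
Neighbours per site and kb on one side of a site (log scale) against the distance between sites (bp, log scale), at equal list length. Steps are distance bins and bars are 95% counting intervals. PHD WT kept about the same density from 10 to 200 bp and fell from 1.86 to 0.0306 by 5 to 10 kb, while PHD M880A fell from 0.0390 to 0.0159 over that range. Both had an excess in the bin up to 10 bp.

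The shortest distances were different in kind. Up to 10 bp, PHD WT had 1019 pairs of sites and PHD M880A 372. Of these, 603 and 351 were on the same strand, so almost all of the mutant pairs at this range were same-strand pairs. Same-strand pairs 1 to 3 bp apart numbered 409 in PHD WT and 334 in PHD M880A. At 1, 2 and 3 bp there were 195, 122 and 92 pairs in PHD WT and 177, 83 and 74 in PHD M880A. Each single-bp distance from 6 to 25 bp held 23.1 and 1.4 pairs on average. Read support of the pairs 1 to 3 bp apart was low. The lesser and the greater partner had medians of 3 and 11 reads in PHD WT and of 2 and 6 in PHD M880A, and both partners had at least 10 reads in 41 and 5 pairs. Whether such pairs are separate integrations or 1 integration listed more than once was not tested. They mattered for the mutant, whose share with a neighbour within 1 kb, at equal length, was 5.36% after same-strand positions within 10 bp were merged and 6.81% before. The PHD WT shares were 65.9% and 67.2%.

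Opposite-strand pairs at close range had another pattern in both libraries. Retroviral integrase joins the vector to target strands at staggered cuts, which for HIV duplicates 5 bp of host DNA, so a target used in both orientations gives a plus-strand junction at an offset of -4 bp from the minus-strand junction. At this offset there were 141 pairs in PHD WT and 8 in PHD M880A. Offsets of 6 to 25 bp to either side held 12.1 pairs on average in PHD WT (from 6 to 19) and 0.575 in PHD M880A (from 0 to 2). The pairs that shared 5 bp thus stood 11.6-fold and 13.9-fold above other offsets. Per 10000 sites there were 55.6 in PHD WT and 2.29 in PHD M880A. As a share of all opposite-strand pairs within 1 kb, they made up 0.805% (0.683 to 0.949) and 0.880% (0.447 to 1.73), values whose intervals overlapped. The lesser partner of these pairs had a median of 11 reads in PHD WT and 22 in PHD M880A, so they were better supported than the same-strand pairs 1 to 3 bp apart. Whether such a pair marks separate integrations or both ends of 1 provirus was not tested.

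**Figure D3:**
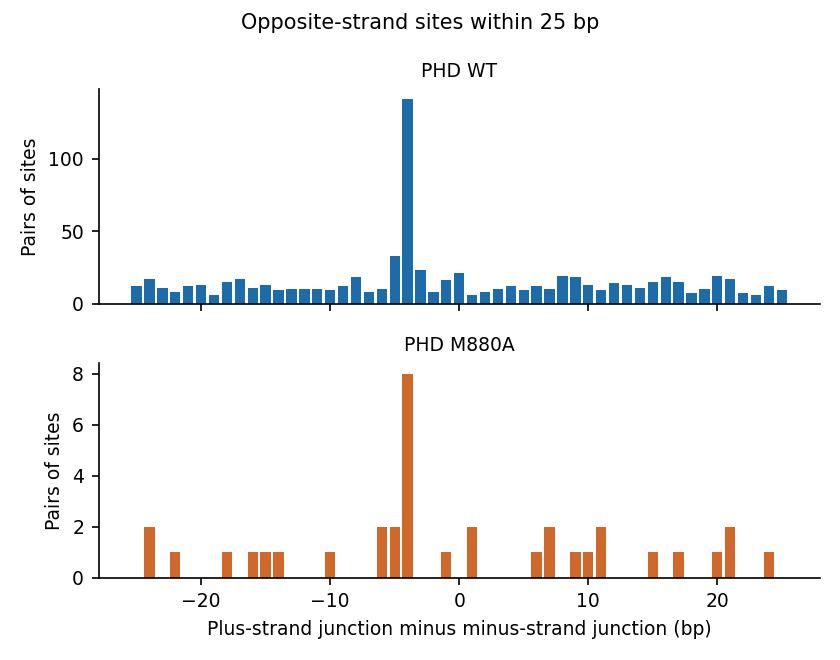
Number of opposite-strand pairs of sites (vertical axis, a scale for each library) by the position of the plus-strand junction minus that of the minus-strand junction (bp). Each panel has its highest bar at -4 bp, with 141 pairs in PHD WT and 8 in PHD M880A.

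Beyond these closest pairs the strands were mixed in both libraries. Of PHD WT pairs within 1 kb, 49.6% (49.1 to 50.1) were on opposite strands. In PHD M880A it was 42.0% (39.9 to 44.1), a difference of 7.66 points (5.50 to 9.78). Among pairs 20 to 1000 bp apart the shares were 49.9% and 49.6%, a difference of 0.235 points, and after merging same-strand positions within 10 bp it was 0.524 points. The strand difference was therefore carried by the same-strand pairs a few bp apart. In PHD WT pairs on opposite strands within 1 kb, the plus-strand site was the left one in 52.4% (51.7 to 53.2), between 1 and 5 kb in 49.7% (48.7 to 50.6), and between 5 and 10 kb in 53.8% (51.6 to 56.0), so the share did not fall steadily with distance. In PHD M880A the plus-strand site was on the left in 53.8% (50.5 to 57.0) within 1 kb.

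Runs of 5 or more sites, chained by the same 1 kb rule and here called foci, numbered 1222 in PHD WT and 29 in PHD M880A, whose list was the longer. They held 9553 PHD WT sites and 219 PHD M880A sites, 37.7% and 0.628% of each library. PHD WT foci were compact, with a median width of 1311 bp (quartiles 927 and 1876 bp) and a median density of 5.58 sites per kb. PHD M880A foci were wider and looser, with medians of 1915 bp and 3.90 sites per kb. Both strands were present in 1192 of the 1222 PHD WT foci and in all 29 PHD M880A foci. Within the 471 PHD WT foci of at least 8 sites, and leaving out the outermost sites, the middle 20% of the width held 23.1% (21.9 to 24.4) of sites. The outermost 20% on either side held 15.7% and 17.2%, so that the sites were densest towards the middle of the scaled width. Each focus was scaled between its own first and last sites, so a dip at a feature lying elsewhere in a focus could not be seen.

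Single PHD WT foci are named by their number or density of PHD WT sites, so the wild-type counts in them are a description and no ratio is given. Among the largest PHD WT foci after the 5 fullest, the counts of the mutant ran from 0 to 4 (coordinates are mm9, and no gene annotation of this build was used). Chromosome 1 from 135028156 to 135031089 contained 23 sites of PHD WT, 12 of them on the plus strand, and 2 of PHD M880A. This is 9.07 against 0.573 per 10000 sites of each library. The focus on chromosome 3 from 88334629 to 88339844 was the widest of these, 5216 bp. It had 23 PHD WT sites and none of the mutant, a count of 0 that allows up to 3 sites. The span from 29743864 to 29746942 on chromosome 7 had 22 wild-type and 4 mutant sites. That focus kept the most mutant sites of the group. The others had 22 and 1 (chromosome 14, 106293616 to 106296186) and 21 and 0 (chromosome 11, 95864317 to 95869236).

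The densest PHD WT foci were at most 1253 bp wide and held 1 mutant site or none. The most sites per kb, 15.4, lay on chromosome 17 from 35300365 to 35301340, where 15 PHD WT sites fell within 976 bp with no gap over 201 bp. The mutant had 1 site there. Chromosome 9 from 88416727 to 88417585 had 13 sites in 859 bp, 15.1 per kb, and 1 mutant site. Read support differed among these foci: the median was 4 reads per site in the chromosome 9 focus and 27 in that of chromosome 17. Chromosome 10 held another pair of dense foci, 79613975 to 79614738 with 11 PHD WT sites and a median of 76 reads, and 127102244 to 127103496 with 18 sites, evenly divided between the strands and with a median of 7 reads. The last, on chromosome 5 from 137747588 to 137748322, had 10 sites in 735 bp. None of the last 3 contained a PHD M880A site. The same held for 849 of all 1222 PHD WT foci, so such an absence is not particular to the densest foci.

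The few foci of the mutant lay mostly where the wild type was also crowded. Of the 29 PHD M880A foci, on 14 chromosomes, 20 overlapped a PHD WT focus, 25 contained at least 1 PHD WT site and 4 contained none. By share of the library, the wild type led in 15 of them and the mutant in 14. Since these regions were chosen as crowded in PHD M880A, its counts there are a description. The fullest, on chromosome 19 from 5799398 to 5802304, held 23 PHD M880A sites (10 plus, 13 minus, 1603 reads) and 14 PHD WT sites, and a neighbouring one from 5796217 to 5798098 held 9 and 2. Both libraries had 15 sites between 86396843 and 86400686 on chromosome 11. Between 88578910 and 88583168 on chromosome 4 there were 11 PHD M880A and 9 PHD WT sites. The exception among the 5 fullest was chromosome 1 from 162965616 to 162968444, with 15 PHD M880A and 3 PHD WT sites, which overlapped no PHD WT focus. The 4 foci without a PHD WT site held 5 or 6 PHD M880A sites each. They were on chromosome 4 from 40671966, chromosome 11 from 120205666, chromosome 15 from 103075729 and chromosome 17 from 39983469. Their median reads per site were 8, 40, 18 and 5, in that order, so read support was low in some of them. These foci are named because their PHD WT count was 0, after their values were seen.

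Mutant sites were not spread evenly with respect to the wild-type foci. The foci of PHD WT covered 1.80 Mb, 0.0699% of the span, and held 630 PHD M880A sites, 1.81% of that library and 25.8 times the covered share. At equal length the PHD M880A density was 255 sites per Mb (236 to 276) inside, 110.0 (99.0 to 122) within 1 kb outside the edge, 42.3 (38.3 to 46.5) at 2 to 5 kb and 22.2 (20.5 to 23.9) at 10 to 20 kb. Over 500 kb from any focus it was 8.14 (8.03 to 8.26), 0.825 times its genome mean. The mutant density thus fell with distance from the wild-type foci out to 500 kb, without reaching its distant level between 100 and 500 kb, where it was 11.1. Even so, 58.6% of the PHD M880A sites lay more than 500 kb from any PHD WT focus. Read support of the mutant sites was alike in both places, with medians of 24 reads (22 to 28) inside and 23 (22 to 23) outside.

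Larger wild-type foci held more mutant sites, also per kb. A PHD M880A site was present in 106 of 564 PHD WT foci with 5 or 6 sites, 18.8% (15.8 to 22.2), and in 112 of 384 with 7 to 9 sites, 29.2% (24.8 to 33.9). It was present in 112 of 210 with 10 to 14 sites, 53.3% (46.6 to 60.0), and in 43 of 64 with 15 or more, 67.2% (55.0 to 77.4). At equal length the mutant density rose over these classes from 0.143 per kb (0.119 to 0.171) through 0.203 and 0.372 to 0.512 (0.428 to 0.606). The PHD WT density, which the classes partly fix, went from 4.99 to 6.08 per kb. The same order was seen from the side of single sites, which counts many of the same sites again and adds no separate support. A PHD M880A site lay within 1 kb of 6.04% (5.47 to 6.66) of the 6193 isolated PHD WT sites, those with no other PHD WT site within 10 kb. It was 37.1% (36.0 to 38.2) of sites with 4 to 9 PHD WT neighbours and 61.2% (58.3 to 63.9) of those with 10 or more. In the other direction, 6.98% (6.72 to 7.25) of PHD M880A sites had a PHD WT site within 1 kb.

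Read support of a site varied with the number of its neighbours, in PHD WT towards higher support of crowded sites. The median was 29 reads per site in PHD WT (quartiles 4 and 98) and 23 in PHD M880A (7 and 65), with a minimum of 2 in both lists. The wild-type spread was wider at both ends: 15.4% of its sites had only 2 reads and 24.8% at least 100, against 10.2% and 16.6% in the mutant. The fullest 1% of sites held 14.1% of the reads in PHD WT and 12.6% in PHD M880A. In PHD WT the median was 33 (32 to 35) with at least 4 neighbours within 1 kb and 23 (21 to 25) with none, a ratio of 1.43 (1.28 to 1.67). With only sites of at least 10 reads kept, the ratio was 0.971, so higher support of crowded sites was not seen among those. Only 2 reads supported 20.4% (19.5 to 21.2) of the PHD WT sites without a neighbour and 13.0% (12.2 to 13.7) of those with at least 4, so single wild-type sites were more often weakly supported. In PHD M880A the medians were 25 (17 to 35) and 23 (23 to 24), a ratio of 1.09 (0.708 to 1.52) that held 1. Mutant sites with exactly 1 neighbour had a median of 14 reads (13 to 16), and 25 without the positions that had a same-strand site within 10 bp.

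**Figure D4:**
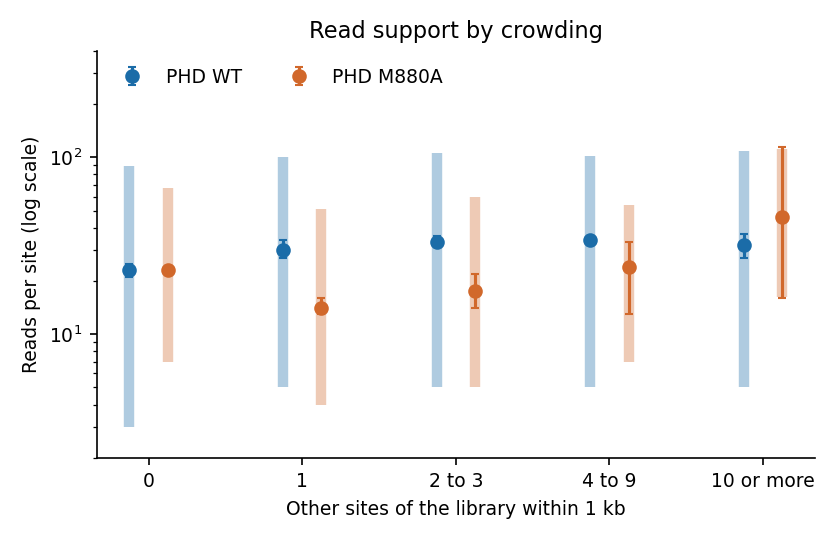
Reads per site (log scale) by the number of other sites of the library within 1 kb. Points are medians with 95% intervals from order statistics, and pale bars run from the lower to the upper quartile. PHD WT medians ran from 23 without a neighbour to 34 with 4 to 9, and the lowest PHD M880A median was 14, with 1 neighbour.

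The correlation of site counts between the libraries was higher in larger windows, which also hold more sites each; how much of the rise comes with the larger counts was not tested. In windows of 10 kb, 4.39% held a PHD WT site and 11.9% a PHD M880A site, and the counts had a Pearson r of 0.238 over 256829 windows. In windows of 100 kb r was 0.454, and in the 2583 windows of 1 Mb it was 0.713 (Spearman rho 0.661). In 275 windows of 10 Mb it was 0.755. These are descriptions over windows that share their libraries, so they carry no test. At 1 Mb the wild type was still the more uneven library. The most crowded windows held 50% of its sites in 385 windows, and that share of the mutant took 787. The variance over windows was 17.9 times the mean in PHD WT and 4.26 times in PHD M880A.

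Windows of 1 Mb were called where the site shares, with 0.5 added to each count, were at least 2-fold apart. Of 2136 windows with at least 10 sites over both libraries, PHD WT was higher in 192 (8.99%) and lower in 573 (26.8%), and 1371 were within 2-fold. The higher windows were full, with medians of 30 PHD WT and 16 PHD M880A sites, and the exact interval of the ratio lay above 1 in 163 of them. The lower windows were sparse, with medians of 2 and 14 sites, and the interval lay below 1 in 287. The higher windows held 28.9% of PHD WT and 10.5% of PHD M880A sites, and the lower ones 6.03% and 23.2%. Because the ratio called these windows, their medians, intervals and shares are a description and no test. The split depended on which windows entered. The minimum of 10 sites was summed over both libraries, and the PHD M880A list was the longer. A window could thus enter through its mutant sites alone, so the numbers of higher and lower windows cannot be weighed against each other. With at least 20 sites 170 were higher and 157 lower of 1244, and with each run of sites counted once 167 were higher and 293 lower of 2069.

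The windows with the highest and lowest ratios are given as a description, since the ratio chose them. With 0.5 added to each count, the highest was 10.5 on chromosome 9 from 90000001 to 91000000, which rests on 11 PHD WT sites and 1 PHD M880A site. Chromosome 7 from 3000001 to 4000000 had 26 and 4 sites and a ratio of 8.10. The next 3 were well filled and held several foci of the wild type. The window at 155000001 to 156000000 of chromosome 4 had 6 PHD WT foci, with 87 and 22 sites and a ratio of 5.35. Chromosome 7 from 52000001 to 53000000 had 71 and 18 sites and 5 foci, and chromosome X from 71000001 to 72000000 had 55 and 15 sites and 4 foci. The 5 windows at the other end had no PHD WT site and entered through their mutant sites alone. Of these, chromosome 15 from 62000001 to 63000000 had 23 PHD M880A sites and chromosome 2 from 54000001 to 55000000 had 18. Windows from 158000001 on chromosome 3, 6000001 on chromosome 5 and 45000001 on chromosome 8 had 17 each.

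**Figure D5:**
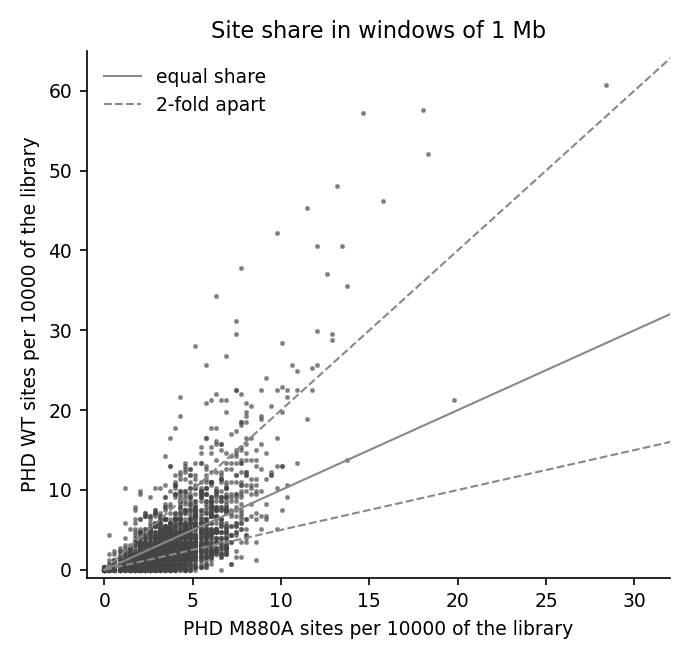
Sites per 10000 of each library in the 2583 windows of 1 Mb, PHD WT on the vertical and PHD M880A on the horizontal axis (scales differ). The solid line marks equal shares and the dashed lines a 2-fold difference. The fullest PHD WT windows lie above the upper dashed line, and many windows with few or no PHD WT sites lie along the horizontal axis.

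The mutant followed the regional order of the wild type, with a smaller range that ranking on the wild type partly fixes. When windows were ranked by their PHD WT count, the lowest 10% of windows held on average 0.151 PHD WT and 6.71 PHD M880A sites per window. The 10% just below the middle held 5.14 and 12.9, and the highest 10% held 39.4 and 25.2. Per 10000 sites of the library, the mean thus ran from 0.0594 to 15.5 in PHD WT, whose counts set the ranking, and from 1.92 to 7.22 in PHD M880A. The 26 windows that were fullest in PHD WT, 1% of all, held 3.10% (2.93 to 3.29) of the PHD M880A sites. The 26 fullest in PHD M880A held 3.54% of that library and 8.56% (8.22 to 8.91) of the PHD WT sites, so the wild type was the more concentrated library even in windows ranked on the mutant. In 220 windows there was no PHD WT site, and 1406 PHD M880A sites, 4.03% of the library, lay in them.

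Whole chromosomes differed less. The ratio of PHD WT to PHD M880A shares was highest on chromosome 17, with 1404 and 1429 sites (1.35, 1.25 to 1.46), followed by chromosome 11 (1.23, 1.16 to 1.30), chromosome 7 (1.22, 1.13 to 1.32) and chromosome 19 (1.22, 1.12 to 1.34). It was lowest on chromosome 1, with 1503 and 2592 sites (0.798, 0.748 to 0.850), chromosome 13 (0.816, 0.751 to 0.886) and chromosome X (0.829, 0.768 to 0.894).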

How the data were processed

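Integration positions were analysed for the PHD WT and PHD M880A libraries, with groups taken from the sample characteristics. The authors deposited, per the file headers, lists of integration sites from paired-end reads (read pairs of 108 nt per the labels' protocols). The submitters' processing notes name mm9 as the build and list MACS 1.4.2 without its purpose, with aligner and filters not given in the sources used here. Every deposited score was 0, and scores were not used. The whole number after each read name was taken as reads, from its values only. Junctions were the 5′ end of the listed strand, 1-based, and lines that repeated a junction on the same strand were merged with their reads summed (722 and 472 lines removed).

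Shares at equal length are exact hypergeometric expectations, with no random draws. Shares have Wilson intervals, counts exact Poisson intervals and window ratios exact conditional binomial intervals, all at 95% and for counting error only, since PCR copies of a junction cannot be told from separate molecules. For ratios of medians, opposite ends of the separate 95% intervals of the medians were divided. For nearest distances these came from the medians over all sites and were scaled to the ratio at equal length. The regions named are the 5 PHD WT foci after the 5 fullest, the 5 densest with at least 10 sites, the 5 fullest PHD M880A foci, and the 5 highest and 5 lowest ratios among 1 Mb windows. Members, lists and rules were chosen with earlier results of these data known. No annotation of mm9 was used, so the planned comparison of promoters and genes was not run, and no gene is named. The code was tested on simulated data. Calculations used Python 3.11.15, numpy 2.4.6, pandas 2.3.3, scipy 1.17.1 and matplotlib 3.10.9.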

Additional observations from a re-analysis of the deposited data

How the results depend on the processing

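Of 83 values recomputed under other settings, 54 stayed within the counting interval of the reported value (or within 1.5 times a reported count) and 28 left it. The remaining 1 fell on the other side of a ratio of 1 that the reported interval had excluded. Some settings change the quantity itself: the neighbour distance, the minimum sites of a focus or window, or the share of windows taken. Values can leave the interval for that reason alone, so the tally is no measure of robustness. The causes were not tested. The ratio of sites with a neighbour within 1 kb, 9.86, was 12.3 with same-strand positions within 10 bp merged, 16.4 with at least 10 reads, 7.98 with the other end as the junction, 7.56 over all sites, 14.7 within 200 bp and 4.13 within 5000 bp. The ratio of median nearest distances, 90.4, was 84.1 after merging, 100.1 with at least 10 reads and 64.1 over all sites. The ratio of density folds, 16.0, was 18.8, 19.6 and 13.5 with merging, at least 10 reads and the other end. The difference in the opposite-strand share, 7.66 points, was 0.524 after merging, 0.649 with at least 10 reads, 13.7 with the other end, 3.01 within 5000 bp and 0.235 at 20 to 1000 bp. The ratio of median reads, 1.43 in PHD WT, was 0.971 with at least 10 reads. This filter acts on the quantity compared and removes the weakly supported sites. The value therefore gives no direction for the full list, but crowded sites had no higher median among the sites kept. In PHD M880A the ratio was 0.652 for sites with at least 1 neighbour, also on the other side of 1 from the reported 1.09. It is counted among the 28 because the reported interval, 0.708 to 1.52, held 1. Windows lower in PHD WT, 573, were 353 with at least 10 reads, 157 with at least 20 sites and 293 with each run counted once, an alternative chosen after seeing the data. The fullest 5% of windows held 21.4% of PHD WT and 10.96% of PHD M880A sites. Foci numbered 669 and 13 with at least 10 reads, and 2575 and 152 from 3 sites on. With gaps of at most 500 bp, PHD M880A had 16. Autosomes alone, and leaving out positions of other libraries, left every value inside. No paired analysis was possible because each group has 1 library, and none could be left out. The number of sites and the minimum of 2 reads limit what can be detected. The promoter comparison was not run.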

Other observations

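With the other end of each listed interval as the junction, no opposite-strand offset stood out within 25 bp: PHD WT had from 5 to 22 pairs per offset and 9 at -4 bp, and PHD M880A from 0 to 3 and 0 at -4 bp. Listed intervals had a median length of 119 bp in both libraries. Of the 40 positions that both libraries listed, 16 had at least 10 reads in both.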
